A study of Caenorhabditis elegans with 4 samples.

Results

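The genes described here are the core of Notch signalling in Caenorhabditis elegans, chosen by name: the receptors glp-1 and lin-12, the ligands lag-2, apx-1 and arg-1, the presenilins sel-12 and hop-1, the nuclear factors lag-1 and sel-8, and the target gene lst-1. Of these 10 genes, 9 were found by symbol in the probe annotation, out of 14943 named genes on the array. No probe there had the symbol lag-2, which is not analysed here. Each of the 9 had 1 probe and a value on all 4 arrays. They were measured in total RNA of glp-4 animals at L4, the last larval stage, on 4 two-channel arrays, 1 for each of 4 preps. The other channel always held a mixed-stage reference of wild-type animals. The labels give no allele, temperature or strain for either side. Mutants of glp-4, the gene of a tRNA synthetase for valine, are known to lack germline proliferation when kept at the restrictive temperature. Genotype and stage differ together between the channels and cannot be told apart.

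In Notch signalling a DSL ligand on 1 cell binds a receptor on its neighbour. The receptor is then cut by an ADAM protease and by gamma-secretase, whose catalytic subunit is a presenilin, and its freed intracellular part enters the nucleus, where it joins the DNA-binding protein LAG-1 and the coactivator SEL-8. In the worm, GLP-1 keeps germline stem cells dividing in response to LAG-2 from the distal tip cell, and maternal GLP-1 receives APX-1 in the early embryo. LIN-12 acts in somatic decisions such as the anchor cell and the vulva, and both receptors share the cleavage and nuclear machinery.

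Values are log2 ratios of glp-4 L4 over reference. The labels do not state which channel was divided by the other, so this direction is likely only, and every higher or lower rests on it. With it turned, each sign below turns. No spread of the reference enters any test, since it was the sole counterpart. The labels do not describe the preps as separate cultures, so p-values speak only of variation between these 4 preps. In limma the variance of each gene is also drawn toward a value estimated over all genes and probes, which is called moderation. Errors are SDs over 4 preps, and adjusted p-values are from limma over all 19989 named genes and unnamed probes (items), with a threshold of 0.05. In whole animals, fewer cells of a type and less RNA per cell cannot be told apart. The array medians lay near 0, so a ratio near 0 need not mean an equal amount per animal or per cell.

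Of the 9 measured genes, 4 were lower in glp-4 L4 preps and 0 were higher: hop-1, glp-1, lst-1 and apx-1. Of all items, 24.4% were lower and 20.6% were higher, 45.0% in either direction. At an unadjusted p under 0.05 limma put 5 of the 9 lower, with lag-1 added, and 1 higher, sel-12. Without moderation of the variances 3 were lower and 0 higher. Of all 19989 items, 5764 were lower and 4693 higher at the unadjusted p, and 2781 lower and 2524 higher without moderation. Each list count below is to be read beside the figures for all items at the same threshold. No such figures are given for fits that leave out a prep or centre, block or average the arrays. A count that changes there cannot be read as a trait of the list. The germline receptor glp-1 was lower while the somatic receptor lin-12 had a mean near 0, and the presenilin hop-1 was far lower while sel-12 had a positive mean.

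**Figure D1:**
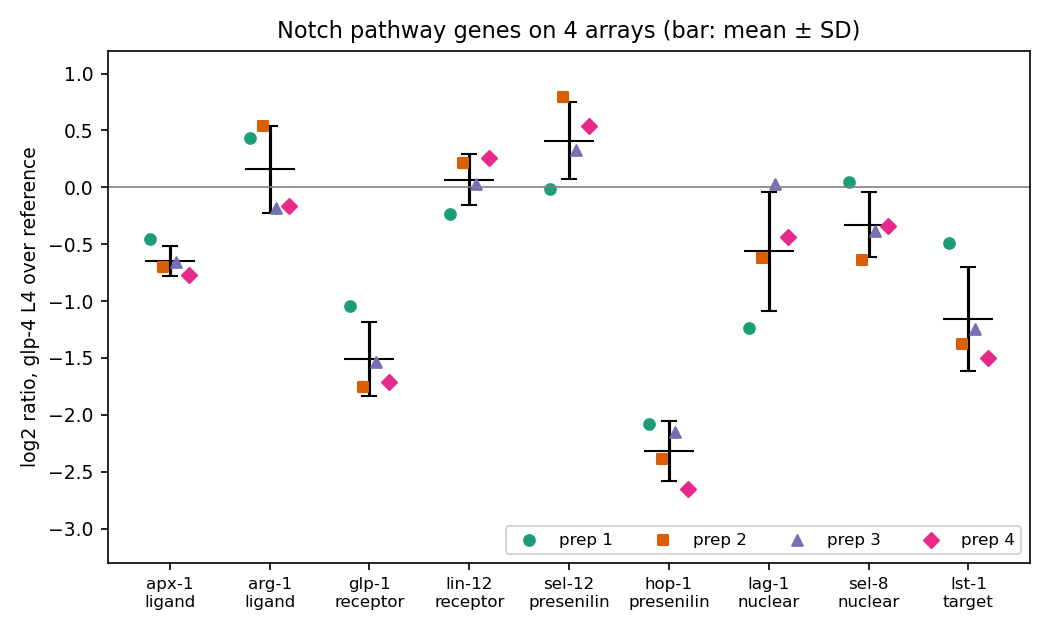
Log2 ratio of glp-4 L4 over reference (y axis) for the 9 measured Notch pathway genes, grouped by role along the x axis; each symbol is 1 prep and the black bars are the mean ± SD of 4 preps. The 4 points of hop-1, glp-1, lst-1 and apx-1 lie below 0, and those of the other genes lie on both sides of it.

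The receptors differed in what they showed. The germline receptor glp-1 had log2 ratios of -1.04, -1.76, -1.54 and -1.71 on preps 1 to 4. All 4 lay below 0, and prep 1 was the least negative. The mean was -1.51 ± 0.33 (SD, n = 4; limma adjusted p = 0.00015), 2.85-fold lower in glp-4 L4 preps, and 4.9% of all items had a more negative mean.

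The somatic receptor lin-12 had log2 ratios of -0.24, 0.22, 0.03 and 0.26 on preps 1 to 4, with prep 1 below 0 and the others above it. Its mean was 0.07 ± 0.22 (SD, n = 4; limma adjusted p = 0.74), and the 95% interval of the mean ran from -0.27 to 0.40. These 4 arrays thus did not exclude a mean change of lin-12 within those bounds, in either direction.

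On the same array, glp-1 lay below lin-12 by 0.80, 1.97, 1.56 and 1.97 on preps 1 to 4, a mean difference, glp-1 minus lin-12, of -1.58 ± 0.55. Every prep gave that order, and no value of glp-1 overlapped with those of lin-12. The exact two-sided sign-flip permutation test gave p = 0.13, the smallest that 4 preps allow, and an adjusted p of 0.16 over the 5 pairs that could be compared of 7 planned. The difference on prep 1 was the smallest of the 4.

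The receptor genes are near neighbours in the RefSeq gene order of assembly WBcel235, with 6 protein-coding genes between them, of which 3 were tested. Those were far-1 at 0.32 ± 0.27, far-2 at 1.05 ± 0.27 and mrpl-44 at 0.45 ± 0.48 (SD, n = 4), where far-1 and far-2 encode fatty acid and retinol binding proteins and mrpl-44 a mitochondrial ribosomal protein. Of the 3, far-2 was higher (limma adjusted p = 0.00073) and the others did not pass (adjusted p = 0.12 and 0.094). The lower ratio of glp-1 did not extend over the measured genes between the receptors. On its other side, ZK507.1 was lower at -0.79 ± 0.22 (adjusted p = 0.0025), and next to that lies dos-1, described below among the co-ligands. These neighbours were looked up after the members' values were seen. Those of the other members were looked up too, and not all are given.

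The likeness of other genes to each receptor was measured as the Euclidean distance over the 4 log2 ratios, among 14647 named genes with a value on every array. Nearest to glp-1 were pqn-59 at a distance of 0.12, bath-36 at 0.23 and T06D4.1 at 0.26. For pqn-59 the log2 ratios were -0.998, -1.72, -1.45 and -1.78 on preps 1 to 4, with the least negative again on prep 1. Nearest to lin-12 were chst-1 at 0.05, elc-2 at 0.10 and C15H9.4 at 0.10.

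The presenilins were the most unequal pair. The gene hop-1 had log2 ratios of -2.08, -2.39, -2.15 and -2.65 on preps 1 to 4, all far below 0. Its mean of -2.32 ± 0.26 (SD, n = 4; limma adjusted p = 1.2e-05) was the most negative among the 9 genes, 4.98-fold lower in glp-4 L4 preps, and 1.87% of all items lay below it. It was the only 1 of the 9 to pass limma's treat test against a 2-fold change (adjusted p = 0.00042), which 8.59% of all items passed, 4.21% on the lower side.

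The other presenilin, sel-12, whose loss causes the egg-laying defect of reduced LIN-12 signalling, had log2 ratios of -0.01, 0.79, 0.33 and 0.54. Prep 1 lay close to 0 and the other preps above it. The mean was 0.41 ± 0.34 (SD, n = 4; limma adjusted p = 0.074) and did not pass, though without prep 1 it did, at 0.55 (adjusted p = 0.018). The difference sel-12 minus hop-1 was 2.06, 3.18, 2.48 and 3.19 on preps 1 to 4, with a mean of 2.73 ± 0.56. This makes the sel-12 ratio 6.63 times that of hop-1, above it in 4 of 4 preps (exact sign-flip permutation p = 0.13, adjusted over the 5 pairs 0.16). Both genes are known to act redundantly, and only loss of both removes Notch signalling in germline and soma.

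The genes beside hop-1 did not all move with it. In the RefSeq gene order, swsn-2.2, a gene related to the SWI/SNF complex, was lower at -0.95 ± 0.36 (adjusted p = 0.0022). On the other side, C18E3.3 had 0.37 ± 0.40 and did not pass (adjusted p = 0.12). Next to C18E3.3, snrp-40.2 was lower at -1.31 ± 0.22 (adjusted p = 0.00017). Beyond swsn-2.2, C18E3.1 had -0.0035 ± 0.25 and did not pass (adjusted p = 0.99).

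**Figure D2:**
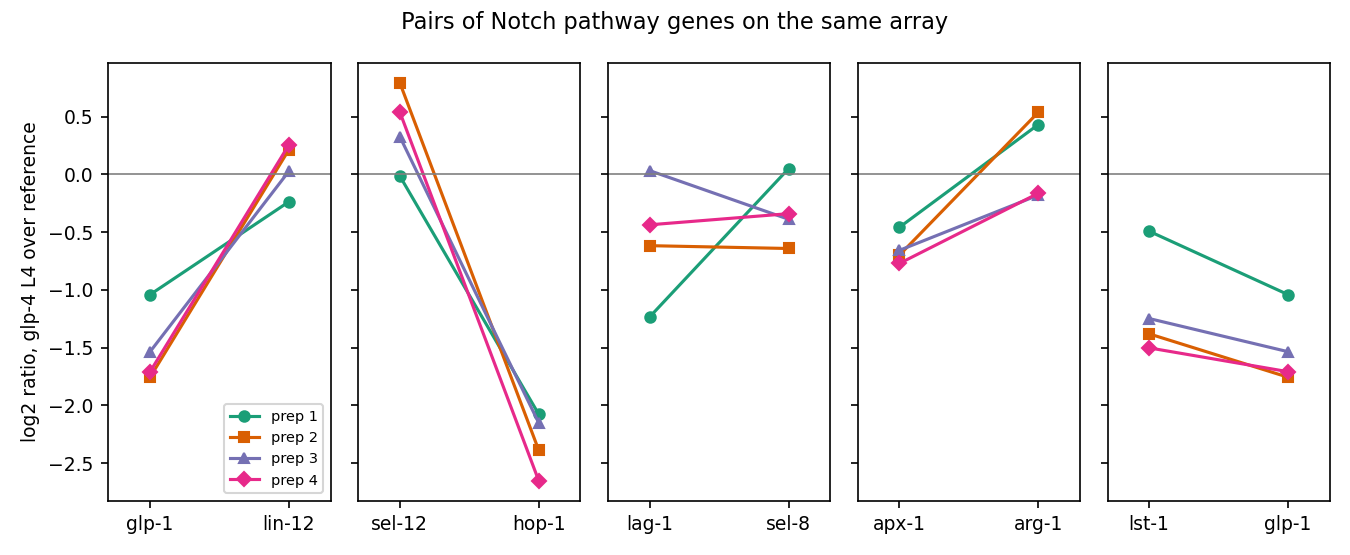
Log2 ratio of glp-4 L4 over reference (y axis) of 2 Notch pathway genes in each panel, joined by a line for each prep. The lines of glp-1 and lin-12, of sel-12 and hop-1, of apx-1 and arg-1 and of lst-1 and glp-1 run the same way in 4 of 4 preps, while those of lag-1 and sel-8 cross.

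Among the ligands, apx-1 was lower and arg-1 did not pass. The gene apx-1, which encodes the maternal ligand of GLP-1 in the early embryo and a ligand used later in the soma, had log2 ratios of -0.46, -0.70, -0.66 and -0.77 on preps 1 to 4. These values lay close together, all below 0, with a mean of -0.65 ± 0.13 (SD, n = 4; limma adjusted p = 0.0049), 1.57-fold lower in glp-4 L4 preps. This SD was the smallest of the 9 genes.

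The ligand gene arg-1, known from mesodermal cells, had log2 ratios of 0.43, 0.54, -0.18 and -0.16 on preps 1 to 4. Preps 1 and 2 lay above 0 and preps 3 and 4 below it, and the mean was 0.16 ± 0.38 (SD, n = 4; limma adjusted p = 0.49), with a 95% interval from -0.24 to 0.55. The titles of preps 3 and 4 share the leading letters of a code and a string in the form of a date. Those of preps 1 and 2 each carry another code and another such string, which also differ from each other. The labels do not explain the codes or the strings, and whether what they mark has a part in the split was not tested. The difference apx-1 minus arg-1 was -0.80 ± 0.34, with apx-1 below in 4 of 4 preps (exact sign-flip permutation p = 0.13, adjusted 0.16).

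The gene order around apx-1 is a further place where neighbours parted. K08D9.4, before it, was higher at 0.75 ± 0.19 (adjusted p = 0.0028), and gtnt-35, after it, was lower at -2.01 ± 0.39 (adjusted p = 4.6e-05). The untested ligand gene lag-2 lies on the side of K08D9.4, with 6 protein-coding genes between it and apx-1.

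Other ligand genes were taken from a list of the DSL family. Of 7 measured DSL genes, apx-1 and arg-1 included, 3 were lower and 0 higher, also at an unadjusted p under 0.05, and without moderation 2 were lower and 0 higher. The list median was -0.22, against -0.06 over all items, of which 24.4% were lower and 20.6% higher. Besides apx-1 the lower ones were dsl-6 at -0.74 ± 0.60 (adjusted p = 0.026) and dsl-1, which encodes a secreted ligand, at -0.39 ± 0.13 (adjusted p = 0.045). For dsl-6 the log2 ratios were -0.12, -0.57, -0.73 and -1.54 on preps 1 to 4, with prep 4 far below the rest. The call was lost without prep 4 (adjusted p = 0.10) or prep 3 (adjusted p = 0.075), with preps 3 and 4 as a random block (0.057) or averaged (0.068), and without moderation (0.17). The call of dsl-1 was lost without any 1 of the preps.

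Secreted co-ligands with a DOS motif act together with DSL ligands, and in the 5 measured ones the signs were mixed. The gene dos-2 had log2 ratios of 1.52, 1.76, 1.61 and 1.80 on preps 1 to 4, tightly grouped and all above 0. Its mean of 1.67 ± 0.13 (SD, n = 4; limma adjusted p = 3.3e-05) was the highest of all pathway genes examined, 3.19-fold higher in glp-4 L4 preps. The co-ligand osm-11, which is known to promote LIN-12 signalling in the vulva, was lower at -0.74 ± 0.38 (adjusted p = 0.0083), a call lost without moderation (adjusted p = 0.08). The third called gene, dos-1, had values on 3 arrays only, -1.16, -0.36 and -0.34 on preps 1, 3 and 4, and was lower at -0.62 ± 0.47 (SD, n = 3; limma adjusted p = 0.049), a call lost with arrays centred (adjusted p = 0.085), with the random block (0.053), without prep 2, where it has no value (0.061), and without moderation (0.25). Without moderation 1 co-ligand was higher and 0 lower. Chosen by value rather than by rule, osm-7 and dos-3 had 0.36 ± 0.35 and -0.10 ± 0.15 and did not pass.

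The nuclear partners had negative means that did not pass. The gene lag-1, which encodes the CSL DNA-binding protein, had log2 ratios of -1.23, -0.62, 0.03 and -0.44 on preps 1 to 4. Prep 1 was the most negative and prep 3 lay close to 0, and the spread was the widest of the 9 genes, with a mean of -0.56 ± 0.52 (SD, n = 4; limma adjusted p = 0.052). The call turned with small changes: lag-1 was lower without prep 3 (adjusted p = 0.023) and with preps 3 and 4 averaged (adjusted p = 0.048).

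The gene sel-8, which encodes the glutamine-rich coactivator of LAG-1, had log2 ratios of 0.05, -0.64, -0.39 and -0.34. Here prep 1 was the highest, and the mean was -0.33 ± 0.29 (SD, n = 4; limma adjusted p = 0.12). Without prep 1 it passed, at -0.46 (adjusted p = 0.034). The difference lag-1 minus sel-8 was -0.23 ± 0.73, above 0 in 2 preps and below it in 2 (exact sign-flip permutation p = 0.75), and without prep 1 it was 0.12.

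The target gene lst-1 encodes a protein that keeps germline stem cells together with the FBF proteins, and it is also known as a target of LIN-12 in the vulva. Its log2 ratios were -0.49, -1.38, -1.25 and -1.50 on preps 1 to 4. All lay below 0, and prep 1 stood above the others. The mean was -1.16 ± 0.45 (SD, n = 4; limma adjusted p = 0.0014), 2.23-fold lower in glp-4 L4 preps, and the call was lost without moderation of the variances (adjusted p = 0.053). On each array lst-1 lay above glp-1, by 0.55, 0.38, 0.29 and 0.21, with a mean difference of 0.35 ± 0.15 (exact sign-flip permutation p = 0.13, adjusted 0.16). The genes beside lst-1 had the opposite sign: hsp-12.1, a small heat shock gene, was higher at 1.36 ± 0.35 (adjusted p = 0.0003) and set-18 at 1.18 ± 0.50 (adjusted p = 0.0017).

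Ordered by mean, the 9 genes ran from hop-1 through glp-1, lst-1, apx-1, lag-1, sel-8, lin-12 and arg-1 to sel-12. The first 3 steps kept their order on every array: glp-1 lay above hop-1 by 0.81 ± 0.21, lst-1 above glp-1 by the 0.35 given above, and apx-1 above lst-1 by 0.51 ± 0.32. From apx-1 upward, each neighbour differed from the next by less than the SD of that difference, and the order changed between arrays.

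**Figure D3:**
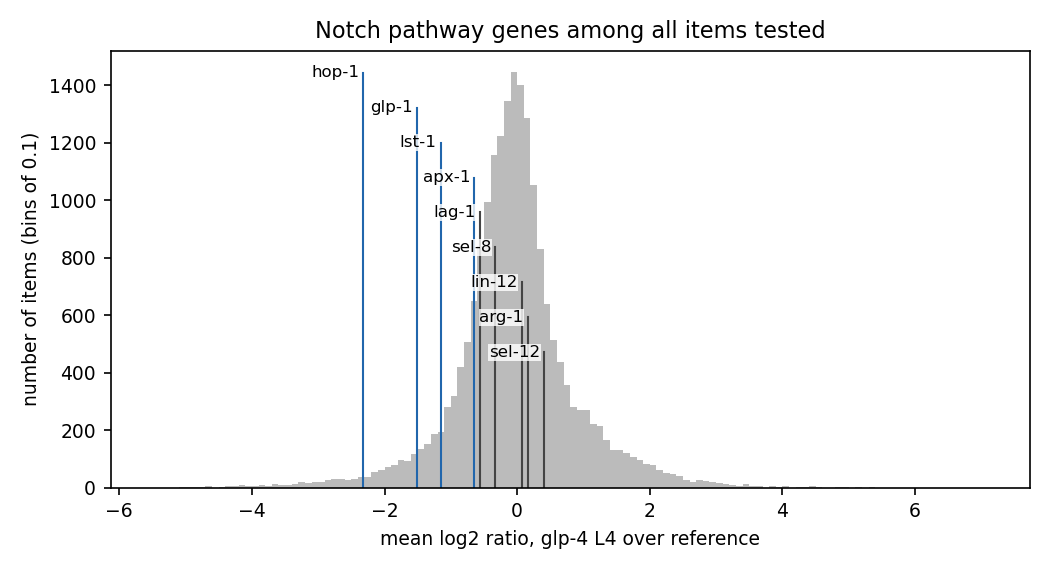
Histogram of the mean log2 ratio of all 19989 items (x axis, glp-4 L4 over reference; y axis, number of items in bins of 0.1), with a vertical line for each measured Notch pathway gene, blue where lower and dark where it did not pass; line heights only separate the names. The line of hop-1 stands in the lower tail, with 1.87% of items below it, and those of lin-12 and arg-1 stand in the centre.

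Genes that GLP-1 signalling is known to turn on in germline stem cells were lower throughout. All 4 on the list were lower and 0 higher, also at an unadjusted p under 0.05, and without moderation 3 were lower and 0 higher. The list median was -1.47. Besides lst-1, sygl-1, which encodes the partner of LST-1, had log2 ratios of -2.03, -1.95, -1.86 and -2.64 on preps 1 to 4, with prep 4 the most negative. Its mean was -2.12 ± 0.36 (SD, n = 4; limma adjusted p = 3.0e-05), so that on every array it was lower than lst-1. The PUF protein gene fbf-2 had -1.78 ± 0.27 (adjusted p = 4.5e-05), although its probe may also bind transcripts of the near-identical fbf-1. The MAP kinase phosphatase gene lip-1 (chosen by value, not by rule) had -1.05 ± 0.38 (adjusted p = 0.0013).

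Of 8 measured germline genes listed as acting downstream of GLP-1 or together with it, fbf-2 included, 7 were lower and 0 higher. The counts were the same at an unadjusted p under 0.05 and without moderation. The list median was -1.67. The repressor of mitosis gld-1 had log2 ratios of -3.99, -3.59, -3.27 and -3.34 on preps 1 to 4 and a mean of -3.55 ± 0.33 (SD, n = 4; limma adjusted p = 2.6e-06), the lowest of the pathway genes examined. The Bicaudal-C homolog gld-3 had -2.26 ± 0.33 (adjusted p = 1.9e-05) and ego-1, an RNA-dependent RNA polymerase found as an enhancer of glp-1, had -1.85 ± 0.22 (adjusted p = 2.9e-05). The poly(A) polymerase gene gld-2, chosen by value, was the 1 that did not pass, at -0.33 ± 0.23 (adjusted p = 0.10).

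Markers of other cells moved alongside. Of 13 germline markers 13 were lower and 0 higher, also at an unadjusted p under 0.05 and without moderation, and wago-1 had the largest change, at -3.87 ± 0.34. The median of the list on preps 1 to 4 was -2.71, -2.71, -2.67 and -2.84, and 12 of the 13 had a more negative mean than glp-1, while 8 had a more negative mean than hop-1. Of 13 oocyte and early embryo markers 12 were lower and 0 higher, also at an unadjusted p under 0.05 and without moderation, with prep medians from -4.21 to -3.74 and pos-1 at -5.06 ± 0.67. Of 12 sperm markers 7 were lower and 0 higher, with the same counts at an unadjusted p under 0.05 and 6 and 0 without moderation. Their prep medians ran from -0.80 to -0.50, and msd-2 had -2.12 ± 0.78. The part of these cells in the ratios of glp-1, hop-1, lst-1 and apx-1 was not tested. Ratios give no level, so whether a marker was present at all in the glp-4 L4 preps cannot be read from them.

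Somatic marker lists lay nearer to 0 or above it. Of all items, 20.6% were higher and 24.4% lower. Of 13 markers of the somatic gonad, which houses the distal tip cell, 2 were higher and 1 lower (1 and 1 without moderation), and the list median was -0.09, with pes-8 at 2.93 ± 0.16. Of 11 vulva markers 3 were higher and 2 lower (0 and 2 without moderation), and the list median was 0.01, with dhs-31 at -1.21 ± 0.24. Of 9 muscle and mesoderm markers 4 were higher and 0 lower, with 5 higher and 0 lower at an unadjusted p under 0.05 and 2 higher and 0 lower without moderation, and the list median was 0.45, with mup-2 at 0.92 ± 0.39. Of 10 neuron markers 5 were lower and 0 higher, with the same counts at an unadjusted p under 0.05 and 2 lower and 0 higher without moderation, and the list median was -0.35, with egl-3 at -1.81 ± 0.25. Epidermis and intestine each had 7 of 9 markers higher, with 1 and 2 lower in that order, and without moderation 5 higher each, with 0 and 1 lower. Their medians were 1.71 and 0.98, led by bli-2 at 5.78 ± 0.57 and pgp-1 at 3.69 ± 0.55.

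**Figure D4:**
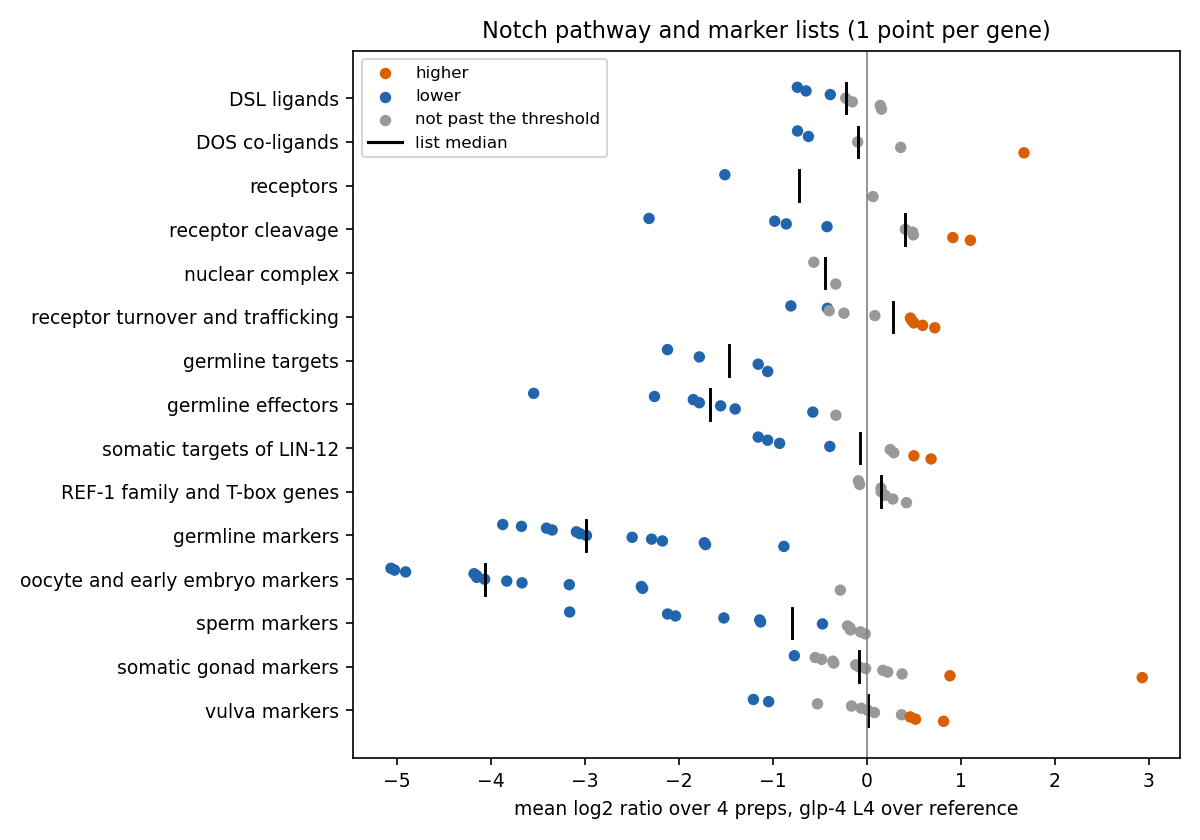
Mean log2 ratio of glp-4 L4 over reference (x axis) of each measured gene in the Notch pathway lists and in markers of the gonad and vulva (y axis, 1 row a list); points are orange where higher, blue where lower and grey where they did not pass, and black ticks are list medians. The 4 germline targets and 7 of 8 germline effectors are blue, while the REF-1 and T-box row is grey throughout.

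The proteases and their helpers were split in direction. Of 9 measured genes on the receptor cleavage list, 4 were lower and 2 higher, with a list median of 0.41. The list includes spe-4, which is presenilin-like but known from sperm development, and which was among the higher ones. All items had 24.4% lower and 20.6% higher. At an unadjusted p under 0.05 the counts were 4 lower and 4 higher, and without moderation 2 lower and 1 higher. Besides hop-1, the gamma-secretase subunit gene aph-1 had log2 ratios of -1.34, -0.80, -0.80 and -0.98 on preps 1 to 4, all below 0, with a mean of -0.98 ± 0.25 (SD, n = 4; limma adjusted p = 0.00097). The nicastrin gene aph-2, a further subunit chosen by value, had -0.33, 0.24, 0.59 and 1.48, on both sides of 0, and did not pass at 0.49 ± 0.76 (adjusted p = 0.16). The means of hop-1, sel-12, aph-1 and aph-2 thus did not share a sign, but only hop-1 and aph-1 passed, both lower.

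The presenilin-like gene spe-4, known from sperm development, was higher at 1.10 ± 0.57 (adjusted p = 0.0036), although 0 of the 12 sperm markers were. Its log2 ratios were 0.89, 0.65, 0.93 and 1.94, with prep 4 above the rest, and without moderation it did not pass (adjusted p = 0.083). The ADAM10 homolog sup-17, chosen by value, was lower at -0.42 ± 0.21 (adjusted p = 0.042), and this call was lost without prep 2 (adjusted p = 0.15), prep 3 (0.12) or prep 4 (0.16), with arrays centred on their medians (0.062), with the random block (0.078) and without moderation (0.079). The tetraspanins tsp-12 and tsp-14, chosen by value, are known to promote Notch signalling redundantly. They had opposite signs on every array: tsp-12 had -1.30, -0.95, -0.40 and -0.78 on preps 1 to 4 and tsp-14 had 1.08, 0.88, 0.78 and 0.93. The means were -0.86 ± 0.37 (adjusted p = 0.0039) and 0.92 ± 0.12 (adjusted p = 0.00076), and the difference between them was not tested. Without moderation tsp-12 did not pass (adjusted p = 0.062).

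Of 10 measured regulators of receptor trafficking and turnover, 5 were higher and 2 lower, and the list median was 0.28. All items had 20.6% higher and 24.4% lower. The counts were 1 higher, sel-9, and 1 lower without prep 2 or prep 4, where no share of all items is given. They were 2 higher and 1 lower without moderation. The kinase gene sel-5 was lower at -0.81 ± 0.20 (adjusted p = 0.002). The p24 family gene sel-9, whose product sorts cargo on the way to the cell surface, was higher at 0.72 ± 0.22 (adjusted p = 0.0039), as was sel-1, a gene of protein quality control in the endoplasmic reticulum, at 0.59 ± 0.29 (adjusted p = 0.015). The call of sel-1 was lost without prep 2 (adjusted p = 0.083) or prep 4 (adjusted p = 0.077), and without moderation (0.075). The F-box gene sel-10, whose product marks the receptor's intracellular part for breakdown, had -0.42 ± 0.20 and passed (adjusted p = 0.042). It was chosen by value, and its call was lost without any 1 of the preps and with arrays centred (adjusted p = 0.083).

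Genes listed as somatic targets of LIN-12 went both ways, as did all items, of which 24.4% were lower and 20.6% higher. The list does not separate direct from indirect targets, or genes that LIN-12 turns on from those it turns down. Of 8 measured, with lst-1 and lip-1 on this list too, 4 were lower and 2 higher (3 and 1 without moderation), with a median of -0.07. The kinase gene ark-1, a negative regulator of EGF receptor signalling in the vulva, had log2 ratios of -0.78, -1.04, -0.63 and -1.25 and was lower at -0.93 ± 0.27 (adjusted p = 0.0014). Higher, and chosen by value, were vav-1 at 0.68 ± 0.20 (adjusted p = 0.0047) and the adaptor subunit gene dpy-23 at 0.50 ± 0.20 (adjusted p = 0.021). The call of dpy-23 was lost without prep 2, prep 3 or prep 4, with adjusted p from 0.072 to 0.079.

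Genes of Notch signalling in the early embryo gave no call. Of 7 measured genes of the REF-1 family of bHLH factors and of the T-box pair, 0 were higher and 0 lower by limma, with 1 higher and 0 lower at an unadjusted p under 0.05 and 0 of either without moderation. The list median was 0.15. The largest mean was that of hlh-25 at 0.42 ± 0.28 (adjusted p = 0.054), which was chosen by value. Members of this family are near-identical in part, so single values are uncertain.

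Over all pathway lists together, 58 distinct genes were tested of 67 listed. Of these, 24 were lower (41.4%) and 9 higher (15.5%), against 24.4% and 20.6% of all items. The 24 take in the lower genes of the germline target list (4 of 4) and the germline effector list (7 of 8), which share fbf-2. The pooled share is thus not one of the pathway at large. The higher count fell to 5 without prep 2 or without prep 4, and the 5 were the same in both: dos-2, sel-9, spe-4, tsp-14 and vav-1. The matching shares of all items are not given, so the fall may not be particular to these lists. Past a 2-fold change by limma's treat lay 7 lower, gld-1, hop-1, gld-3, sygl-1, ego-1, fbf-2 and cye-1, and 1 higher, dos-2, against 4.21% and 4.38% of all items. Of the 33 called genes, 18 kept their call under each of the 13 alternatives other than the 2-fold test and the turned sign, 14 lower and 4 higher.

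Facts of the whole table bear on these values as follows. No value belongs to glp-4 alone, as its probe is annotated to agef-1 as well. The medians of the 4 arrays were 0.02, -0.03, -0.12 and -0.08 and their SDs ran from 0.92 on prep 1 to 1.09 on prep 4. With every array centred and scaled alike, the 4 lower calls among the 9 genes stayed. Probes of the paralogous receptors, or of the presenilins, could bind each other's transcripts, and this was not tested.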

How the data were processed

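The authors deposited log2 ratios of 1 array per prep. That the log has base 2 follows from the values, since 2 to their power was a whole number of thousandths (within 0.01) for 100% of ratios under 20, against at most 3.63% for the inverse. Neither labels nor files name the scanner, the background and dye corrections or any centring. Per the labels, channel 2 held glp-4 L4 RNA and channel 1 the reference. Intensities were not used here, so dim spots and compressed ratios were not judged. Precision is limited by the number of arrays.

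Of 21632 probes, 16450 had 1 gene symbol, 247 several and 4935 none here. The platform's annotation, whose names can be old, gave the symbols, and RefSeq's gene table (WBcel235) updated them by gene ID for 16360 probes, accession for 8 and symbol for 82. For each array, the probes that share a gene were averaged. Items with values on at least 3 arrays entered an intercept-only fit in limma 3.58.1 (R 4.3.3; lmFit, then eBayes), with two-sided p-values adjusted by Benjamini-Hochberg. The 95% intervals are from that fit, not adjusted. The steps were also run on simulated data with 200 changed items and preps that varied independently. That setting differs from these data, so it does not show how the fit behaves here. Sequences were not used here.

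All 9 measured members are described. Of each wider list up to 3 called genes with the largest absolute mean, a value on all 4 arrays and 1 sign are named, and of each marker list 1. Genes outside that rule were picked after their values were known and are called chosen by value. The members and lists were chosen with earlier results of these data known. For preps 3 and 4, whose titles share the leading letters of a code and a date-like string, duplicateCorrelation in limma returned no value. A correlation of 0.37 therefore came from the variance within and between blocks. The other alternatives are named with their effects in the closing section.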

Additional observations from a re-analysis of the deposited data

Results flagged for a closer look

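Dixon's ratio was computed for 82 sets of 4 values: the pathway genes with a value on every array, the 5 pairs and the list medians. In 3 of them a single prep lay far from the rest, fewer than the 4.1 to be had by chance at 1 in 20. For the ligand gene dsl-5 this was prep 2, at -0.054, while the other preps had -0.19 to -0.18. For the LIN-12 target egl-43 it was prep 1, at -0.60, while the rest had -0.34 to -0.31. The somatic gonad markers had a median of -0.13 on prep 4 and of 0.07 to 0.08 elsewhere. No value of the 9 measured members was among the 3.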

How the results depend on the processing

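Each ratio pairs glp-4 L4 with the reference on its array, and with 1 group there are no replicate numbers to match across groups. Leaving out each prep gave means of -1.67 to -1.43 for glp-1, 0.003 to 0.17 for lin-12, -0.76 to -0.34 for lag-1, -0.71 to -0.60 for apx-1, 0.03 to 0.27 for arg-1, -0.46 to -0.23 for sel-8, 0.28 to 0.55 for sel-12, -2.40 to -2.21 for hop-1 and -1.38 to -1.04 for lst-1. The differences ran from -1.83 to -1.44 for glp-1 minus lin-12, 2.57 to 2.95 for sel-12 minus hop-1, -0.45 to 0.12 for lag-1 minus sel-8, -0.91 to -0.66 for apx-1 minus arg-1 and 0.29 to 0.40 for lst-1 minus glp-1. Counts were 4 to 5 lower and 0 to 1 higher for the 9 members, and 17 to 22 lower and 5 to 12 higher for all pathway lists. The 4 lower members kept their call in each of these. Against a 2-fold change, glp-1 at -1.51 (adjusted p = 0.072), apx-1 at -0.65 and lst-1 at -1.16 lost their call, leaving 1 lower member, and 7 lower and 1 higher on all lists. Without moderation lst-1, at -1.16, did not pass and 5 were higher on all lists, as at an adjusted p under 0.01. With lag-1 at -0.56 (items on all 4 arrays) and -0.68 (preps 3 and 4 averaged) it passed. The cause was not tested. On all lists there were 19 lower and 11 higher with arrays centred, 19 and 10 with scaling added, 24 and 9 both when a value was required on all 4 arrays and when 2 sufficed, 18 and 8 with preps 3 and 4 as a random block, 19 and 7 with them averaged, 22 and 8 per probe, and 17 and 5 without moderation or at an adjusted p under 0.01. Among the members 3 to 5 were lower and 0 higher in these. Except without moderation, no share of all items is given beside these counts or those without a prep.

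With every sign turned, by construction, the means were 1.51 for glp-1, -0.066 for lin-12, 0.56 for lag-1, 0.65 for apx-1, -0.16 for arg-1, 0.33 for sel-8, -0.41 for sel-12, 2.32 for hop-1 and 1.16 for lst-1. The differences were then 1.58, -2.73, 0.23, 0.80 and -0.35 in the order above, with 0 members lower and 4 higher, and 9 lower and 24 higher on all lists. Of 220 list medians recomputed, 14 moved by more than their SD over preps, 6 of them that of the 5 co-ligands, whose sign changed in 5. In those 5 settings dos-1 lacked the values needed and left the list, so the median was over fewer genes.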
